A study of Mus musculus with 12 samples.

Results

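The angiopoietin-TIE and VEGF axis was examined here as 10 genes listed by symbol, chosen with earlier results of these data known. They are the receptors Tek, Tie1, Kdr and Flt1 and the ligands Angpt1, Angpt2, Vegfa, Vegfb, Vegfc and Pgf. All 10 were found among the 19049 genes of the deposited count table, and all 10 were among the 18727 genes tested. The samples were 12 RNA-seq libraries of sorted colonic stromal cells from C57BL/6J mice, 4 in each of 3 groups. Normal adult colon came from mice aged 8 weeks and growing colon from mice at postnatal day 14 (P14). Colonic tumours came from mice aged 12 to 14 weeks that had been treated with the carcinogen azoxymethane (AOM) and with dextran sodium sulfate (DSS), an agent that damages the gut lining. In every group, live cells without surface EPCAM, CD31, CD45 or TER119 were collected, a gate meant to leave out epithelium, endothelium, leukocytes and erythroid cells. Each library is from a separate mouse as far as the labels state, and each pools all stromal cell types that pass the gate.

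TIE2, the protein of Tek, is a receptor tyrosine kinase best known from endothelial cells. ANGPT1, made by mural and other mesenchymal cells, activates it and keeps vessels quiet, whereas ANGPT2 acts in many settings as an antagonist that loosens the vessel wall. TIE1 binds neither ligand firmly and modulates TIE2. VEGFA acts on endothelium through the receptors encoded by Kdr (VEGFR2) and Flt1 (VEGFR1, also made as a soluble decoy). VEGFB and PGF bind the product of Flt1, and VEGFC acts mainly through VEGFR3 of lymphatic endothelium.

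Libraries held 15449444 to 38799033 counts. The smallest was tumour replicate 4, in which 9.14% of genes had no count, against 1.4% or less elsewhere. The submitters describe 2 males and 2 females per group, whereas all 4 tumour libraries had high Xist (491 to 1301 CPM) and at most 1 count over 4 Y-linked genes. Normal adult and P14 libraries were split evenly between high and low Xist. Levels are given as CPM, counts scaled to the size of each library. The 9 fibroblast markers summed to between 12130 and 96300 CPM in every library. Epithelial RNA was present despite the gate. The 10 epithelial markers summed to 5363 to 11600 CPM in normal adult, 349 to 2358 in P14 and 1348 to 4817 in tumour libraries. In the same order, the 9 macrophage and pan-leukocyte markers summed to 152.6 to 204.6, 23.3 to 38.9 and 12.1 to 104 CPM. The 8 smooth muscle markers summed to 965 to 1747, 3859 to 7759 and 1075 to 2058 CPM. Residual endothelial RNA was present: 15 endothelial markers, none at 0 in any group, had summed CPM of 131 to 254 in normal adult libraries, 65.6 to 363 in P14 libraries and 70.1 to 127 in tumour libraries. Pecam1, which encodes the sorted-out CD31, stood at 32.0 ± 8.61, 23.9 ± 24.7 and 5.06 ± 2.69 CPM in the 3 groups. P14 replicate 3 had the highest endothelial sum of all 12 libraries. Values after ± are SDs over n = 4 libraries for levels and standard errors for log2 fold changes. Adjusted p-values are from edgeR's quasi-likelihood test, with Benjamini-Hochberg adjustment over all genes tested, and a gene was called at an adjusted p under 0.05.

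Per kilobase of exon (RPKM), Tek was the most abundant member in normal adult stroma, at 29.3 ± 4.38, followed by Vegfa at 26.3 ± 2.23. Their ranges overlapped (25.4 to 34.6 for Tek and 24.1 to 29.4 for Vegfa). Vegfc, Angpt1, Angpt2 and Kdr followed with mean RPKM of 5.68, 5.53, 4.57 and 3.86, and Tie1, Pgf, Vegfb and Flt1 had 2.66, 2.23, 1.92 and 1.60. From Vegfc down, the ranges of neighbours in this order overlapped. In tumours Vegfa led at 23.0 ± 5.31, Angpt2 was next at 9.45 ± 1.38, and Tek stood at 3.47 ± 2.10 RPKM. The other receptors, Tie1, Kdr and Flt1, stood between 1.60 and 3.86 RPKM in normal adult stroma.

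**Figure D1:**
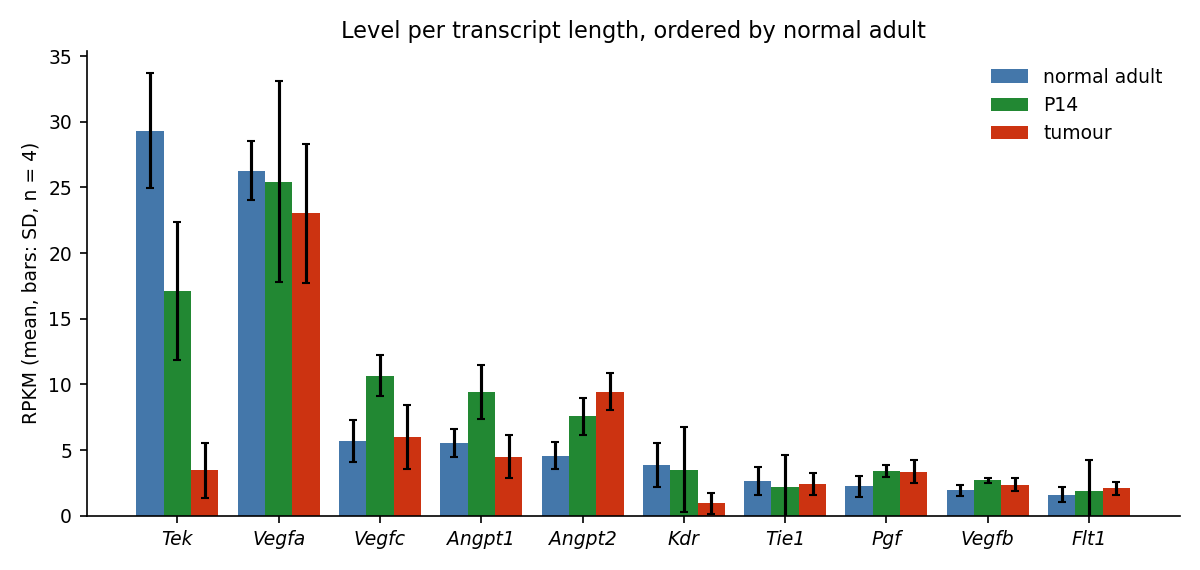
Mean RPKM (y axis) of the 10 members (x axis, ordered by normal adult level) in normal adult, P14 and tumour libraries, with bars of 1 SD over n = 4. Tek falls from 29.3 in normal adult to 3.47 in tumour, while Vegfa stays between 23.0 and 26.3.

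The study compared growing with adult stroma and tumour with adult stroma. Of 10 members, 3 rose at P14 (Angpt1, Angpt2 and Vegfc) and 7 were not called. Of all genes tested, 30.9% were called in this comparison and 14.9% were called higher. The members' share called either way was near that of all genes, and all 3 calls were rises. Ranges without overlap were found for 3 members, higher for Angpt2 and Vegfc (21.6% of all genes) and lower for Tek (21.7% of all genes). Without P14 replicate 3, only Angpt2 was called, and leaving out 5 other libraries also left 1 call. The median log2 fold change of the members was 0.35, against 0.00 over all genes. In tumour against normal adult stroma, Angpt2 rose, Tek fell and 8 members were not called, where 18.9% of all genes were called, 10.6% higher and 8.29% lower. The medians were -0.03 and 0.00. In tumour against P14 stroma, Tek, Angpt1, Vegfc and Kdr fell and 6 were not called, where 37.0% of all genes were called and 17.3% were called lower. The medians there were -0.17 for the members and 0.05 for all genes. The 3 comparisons share groups, so their values stand side by side and are not independent of each other.

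**Figure D2:**
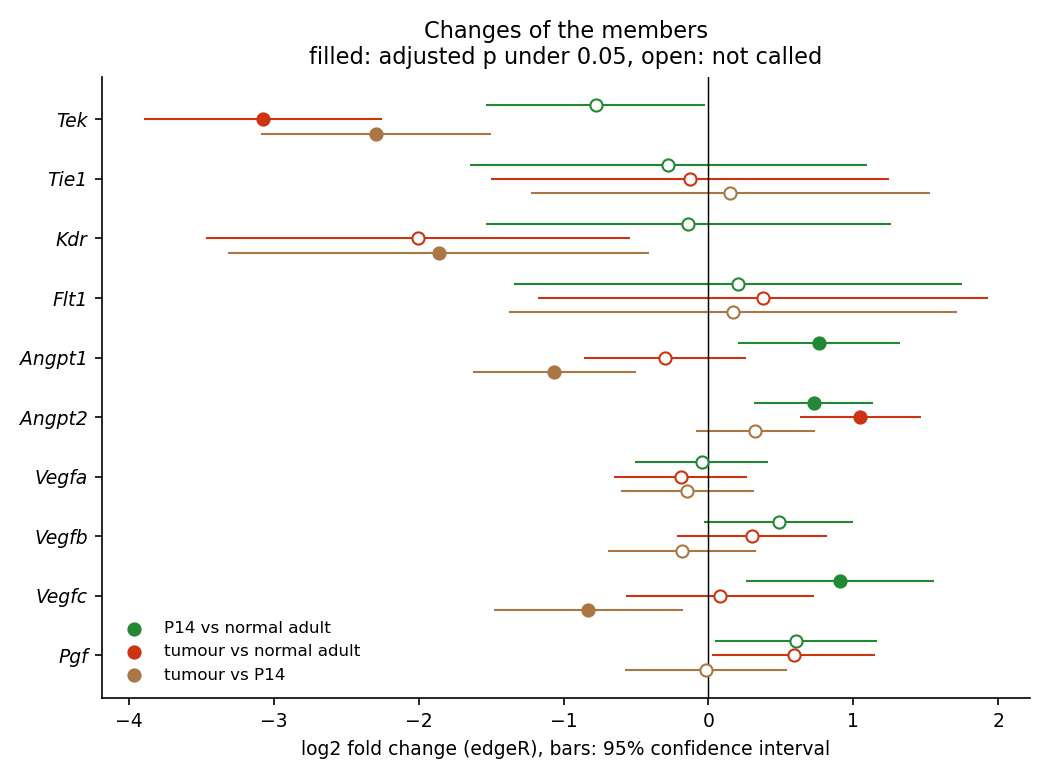
Log2 fold change (x axis) of each member (y axis) in the 3 comparisons, with 95% confidence intervals from edgeR and filled points where the adjusted p was under 0.05. Tek has the most negative values, -3.08 against normal adult and -2.30 against P14, and Angpt2 rises in both groups against normal adult.

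Among the receptors, Tek (ENSMUSG00000006386, chromosome 4, 94739289 to 94874976 on the plus strand, GRCm38) changed most. Normal adult libraries had 163, 123, 120 and 147 CPM. P14 libraries had 107, 96.0, 63.4 and 55.7 CPM. Tumour libraries had 16.7, 30.1, 7.72 and 10.9 CPM. Every tumour library was below every P14 library, and every P14 library was below every normal adult library, the highest tumour value being that of replicate 2. Tek was 8.42-fold lower in tumour than in normal adult stroma (log2 fold change -3.08 ± 0.38, adjusted p = 0.000274) and 4.91-fold lower than at P14 (-2.30 ± 0.37, adjusted p = 0.00056). Ranges without overlap, in either direction, occurred for 22.0% and 32.2% of all genes in these 2 comparisons. Between P14 and normal adult the change of -0.78 ± 0.35 did not pass (adjusted p = 0.11), although the ranges did not overlap, as for 43.3% of all genes. Of the 18 alternatives described below under processing, 2 called Tek lower at P14. In bulk samples, fewer cells of a type and less RNA per cell cannot be told apart.

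Kdr (ENSMUSG00000062960, chromosome 5, 75932827 to 75978458 on the minus strand), the main signalling receptor of VEGFA, was also low in tumours. Its levels were 19.5, 30.2, 35.0 and 54.8 CPM in normal adult libraries. They were 10.8, 9.50, 71.5 and 34.9 CPM in P14 libraries. They were 4.46, 19.3, 4.08 and 6.72 CPM in tumour libraries. Of the tumour libraries, 3 lay below every other library, and replicate 2 lay just under the lowest normal adult value. Against normal adult the log2 fold change was -2.004 ± 0.68, which did not pass (adjusted p = 0.056), and without tumour replicate 2 it was -2.78 (adjusted p = 0.0155). Against P14 Kdr fell 3.64-fold (-1.86 ± 0.67, adjusted p = 0.045). Without P14 replicate 3 that change was -1.09 (adjusted p = 0.189), and 5 of the 8 libraries ended the call when left out.

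Tie1 (ENSMUSG00000033191, chromosome 4, 118471191 to 118490061 on the minus strand) and Flt1 (ENSMUSG00000029648, chromosome 5, 147561604 to 147726011 on the minus strand) were called in none of the 3 comparisons. Tie1 had 7.98, 11.3, 12.7 and 20.3 CPM in normal adult libraries, 2.94, 2.42, 28.3 and 9.54 CPM in P14 libraries, and 13.7, 8.02, 16.9 and 9.08 CPM in tumour libraries. Flt1 had 15.3, 18.1, 19.7 and 33.2 CPM in normal adult libraries, 4.62, 3.84, 72.8 and 18.4 CPM in P14 libraries, and 28.0, 23.1, 37.5 and 23.4 CPM in tumour libraries. Both genes spanned a wide range at P14, lowest in replicates 1 and 2 and highest in replicate 3. Against normal adult, tumour values changed by -0.13 ± 0.64 for Tie1 (95% confidence interval -1.50 to 1.25) and by 0.38 ± 0.72 for Flt1 (-1.18 to 1.93), with adjusted p of 0.913 and 0.757. Without P14 replicate 3, Flt1 was higher in tumour than in P14 stroma (log2 fold change 1.64, adjusted p = 0.029), against 0.17 ± 0.71 (adjusted p = 0.872) with it.

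**Figure D3:**
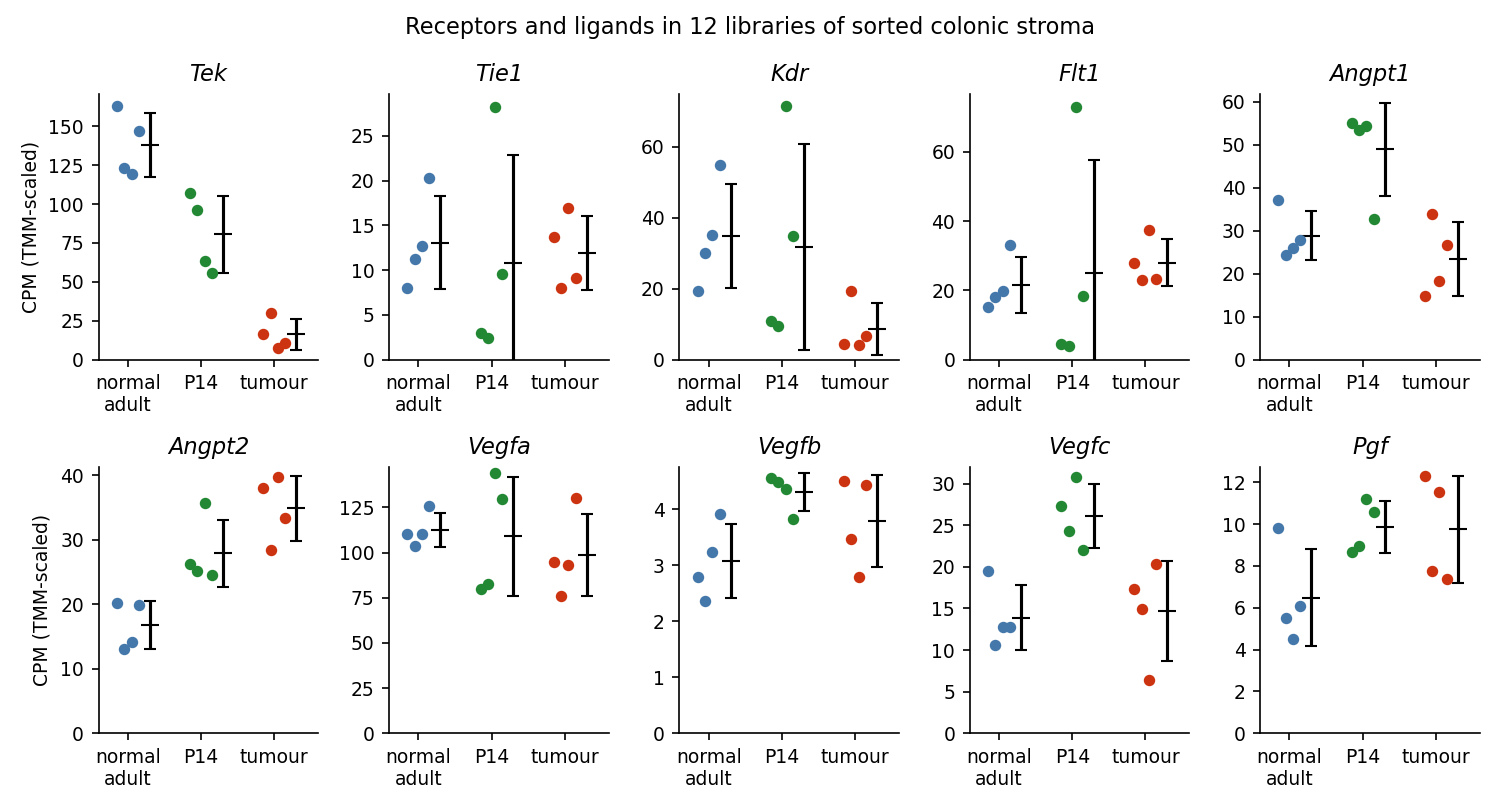
CPM (y axis) of the 10 members in each of the 12 libraries (points, by group on the x axis), with the mean and 1 SD over n = 4 in black, and with SD bars that reach below 0 cut at the axis. Tek separates the 3 groups without overlap, Angpt2 separates normal adult from the others, and P14 replicate 3 stands far above the other P14 libraries in Tie1, Kdr and Flt1.

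Tie1, Kdr and Flt1 varied together with residual endothelial RNA, and the value for Tek was of opposite sign. The measure was the correlation over 12 libraries of each gene's deviation from its group mean with that of the 15 endothelial markers, both on the log2 scale. It is given as a description, since all points share library scaling. Pearson's r was 0.96 for Flt1, 0.94 for Tie1 and 0.82 for Kdr, and -0.25 for Tek (Spearman's rho 0.88, 0.87, 0.83 and -0.37). Without the 2 libraries farthest from the median, P14 replicates 2 and 3, r was 0.86, 0.82, 0.64 and -0.07. With the 9 fibroblast markers, r was 0.83 for Tek, 0.36 for Kdr, -0.14 for Flt1 and -0.25 for Tie1, and for Tek it dropped to 0.48 without tumour replicates 2 and 3. For Tek, r was also -0.66 with the 10 epithelial markers (-0.44 without P14 replicate 4 and tumour replicate 2). With the 9 macrophage and pan-leukocyte markers it was 0.57 (-0.50 without tumour replicates 2 and 3). The part of endothelial, fibroblast, epithelial or leukocyte content in these receptor levels was not tested. In P14 replicates 1 and 2, where the endothelial markers had a geometric mean of 2.80 and 2.15 CPM, Tek was at its highest of that group. In P14 replicate 3, where that mean was 15.9 CPM, Tek stood at 63.4 CPM. In P14 replicate 4, where the mean was 6.39 CPM, Tek was at its lowest of that group, at 55.7 CPM.

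**Figure D4:**
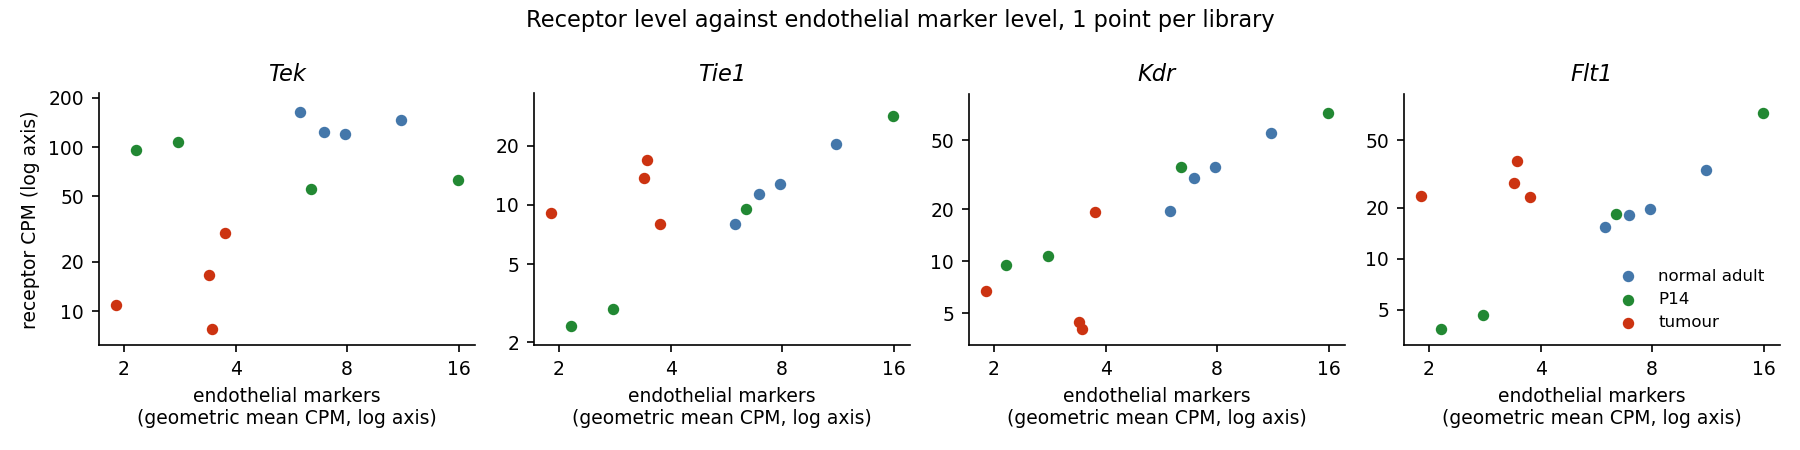
Receptor CPM (y axis, log) against the geometric mean CPM of 15 endothelial markers (x axis, log) with 1 point per library, coloured by group. Tie1, Kdr and Flt1 are highest in P14 replicate 3, where the markers are at 15.9 CPM, whereas tumour libraries (1.90 to 3.74 CPM of markers) have Tie1 and Flt1 near the normal adult levels.

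The endothelial markers themselves were lower in tumours. Of 15, 5 fell and 2 rose (Ecscr and Esam) against normal adult, the median change was -1.74, and 11 had ranges wholly below those of normal adult libraries. In that comparison, 8.29% of all genes fell and 10.6% rose, and 22.0% had ranges without overlap in either direction. Without tumour replicate 4, 3 of the 15 markers fell and 2 rose. Against P14, 6 fell and 1 rose in tumours, where 17.3% and 19.7% of all genes did. None of the 15 fell without tumour replicate 4 or without P14 replicate 3. Each receptor was therefore also set against the geometric mean of these markers within its library. Marker means in tumours ran from 0.19 CPM for Tal1 and 0.36 CPM for Sox18 to 41.45 CPM for Esam. For the lowest markers, the 0.5 CPM added before taking logs makes up much of the value. In normal adult libraries the ratio of Flt1 to that mean was 2.44, 2.50, 2.4 and 2.87, at P14 it was 1.55, 1.64, 4.48 and 2.74, and in tumours it was 7.33, 5.57, 9.60 and 9.93. Every tumour library was above every other library. The log2 difference between tumour and normal adult was 1.63 for Flt1 (3.10-fold), 1.12 for Tie1 (2.17-fold), -0.90 for Kdr and -1.98 for Tek. Exact permutation of the group labels (70 assignments, two-sided) gave p = 0.0286 for Flt1, Tie1 and Tek, which is the least possible with 4 libraries on each side, and p = 0.171 for Kdr. Adjusted over 12 tests (4 receptors in 3 comparisons), those p-values were 0.0686 and 0.256, so none passed. Whether the least possible p passes depends on how many tests are adjusted together, so these values do not show an absence of difference. Between P14 and normal adult, all 4 differences lay between -0.25 and 0.05 with permutation p from 0.257 to 0.914. Ecscr, a member of the divisor, moved against most of it, from 6.83 ± 0.65 to 18.1 ± 6.09 CPM.

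To show the 4 receptor genes at their starts, the 250 bases before the RefSeq start of each are printed (GRCm38.p6, 5′ to 3′ on the gene's strand), at chr4:94739039-94739288 (plus strand) for Tek, chr4:118489850-118490099 (minus strand) for Tie1, chr5:75978456-75978705 (minus strand) for Kdr and chr5:147726012-147726261 (minus strand) for Flt1. Capitals mark GGAA or its reverse complement TTCC, the core bound by ETS factors, a family used widely by endothelial genes.
Tek: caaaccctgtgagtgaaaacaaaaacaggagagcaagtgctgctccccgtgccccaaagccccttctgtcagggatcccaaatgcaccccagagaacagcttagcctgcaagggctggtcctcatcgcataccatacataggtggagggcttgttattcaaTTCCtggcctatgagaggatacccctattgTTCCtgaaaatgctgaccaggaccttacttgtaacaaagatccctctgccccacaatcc
Tie1: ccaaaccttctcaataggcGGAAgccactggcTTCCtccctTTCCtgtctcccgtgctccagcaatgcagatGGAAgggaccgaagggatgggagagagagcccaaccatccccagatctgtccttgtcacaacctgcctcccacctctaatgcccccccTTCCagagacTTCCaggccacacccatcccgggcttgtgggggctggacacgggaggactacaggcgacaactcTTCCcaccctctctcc
Kdr: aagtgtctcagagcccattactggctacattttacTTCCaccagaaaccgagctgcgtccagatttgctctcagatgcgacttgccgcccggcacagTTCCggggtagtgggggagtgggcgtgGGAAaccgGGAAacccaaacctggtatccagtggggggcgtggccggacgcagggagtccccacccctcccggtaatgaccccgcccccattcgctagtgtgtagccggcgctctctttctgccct
Flt1: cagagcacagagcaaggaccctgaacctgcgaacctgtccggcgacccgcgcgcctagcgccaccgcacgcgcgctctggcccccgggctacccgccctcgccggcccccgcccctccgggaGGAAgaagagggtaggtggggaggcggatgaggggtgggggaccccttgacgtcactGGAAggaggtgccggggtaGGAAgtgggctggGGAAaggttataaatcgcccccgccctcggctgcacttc
The core occurred 2 times in the window of Tek, 7 times in that of Tie1 and 4 times each in those of Kdr and Flt1. The Tie1 window lies mostly inside the span given above for that gene, which begins at 118490061 on the minus strand. Of 32851 such windows of the mouse annotation, 93.4% held it on either strand, with a median of 3 matches. Windows were found for 8 of the 10 members, Angpt1 and Angpt2 being the others. The core ACGTG of hypoxia response elements (or CACGT on the other strand), present in 16.6% of all windows, was in none of these 4. The shares refer to windows of the same length, and a match only describes letters in a window.

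Of the ligands of TIE2, Angpt2 (ENSMUSG00000031465, chromosome 8, 18690263 to 18741562 on the minus strand), the context-dependent antagonist, rose in both P14 and tumour stroma. Normal adult libraries had 20.3, 13.1, 14.2 and 19.9 CPM. P14 libraries had 26.3, 25.1, 35.7 and 24.5 CPM. Tumour libraries had 38.0, 28.4, 39.8 and 33.4 CPM. No P14 or tumour library was as low as any normal adult library, and P14 and tumour ranges overlapped. The log2 fold change was 1.05 ± 0.19 in tumours (2.07-fold, adjusted p = 0.00279) and 0.73 ± 0.19 at P14 (1.65-fold, adjusted p = 0.0124), both against normal adult. Between tumour and P14 it was 0.32 ± 0.19 (95% confidence interval -0.09 to 0.73, adjusted p = 0.196). Leaving out any single library kept both calls.

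Angpt2 moved with pericyte markers. Within groups its r with the mean of 10 pericyte markers was 0.72 over 12 libraries, and 0.79 without tumour replicate 1 and normal adult replicate 4. With the 9 fibroblast markers its r was -0.13 over 12 libraries, but also 0.79 without tumour replicates 2 and 3. Of the 10 pericyte markers, 10 rose in tumours and 8 rose at P14 against normal adult, with medians of 1.47 and 1.55. Of all genes, 10.6% and 14.9% rose. Rgs5, a G protein regulator of pericytes, had a mean of 357 ± 84.7 CPM in normal adult stroma, 1145 ± 237 CPM at P14 and 1681 ± 647 CPM in tumours (log2 fold change 2.24 ± 0.28 in tumours, adjusted p = 0.000275). Higd1b, also a pericyte gene, changed by 3.296 ± 0.38 in tumours (adjusted p = 0.000175). The pericyte sum ran from 625 to 1107 CPM over normal adult, 2047 to 2829 in P14 and 2131 to 4218 in tumour libraries. Their part in the rise of Angpt2 was not tested.

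Angpt1 (ENSMUSG00000022309, chromosome 15, 42424723 to 42676977 on the minus strand), the agonist, rose at P14. It had 37.1, 24.3, 25.96 and 27.8 CPM in normal adult libraries. It had 55.1, 53.4, 54.3 and 32.8 CPM in P14 libraries. It had 14.8, 33.8, 18.3 and 26.7 CPM in tumour libraries. Of the P14 libraries, 3 were above all others and replicate 4 lay within the normal adult range. At P14 the log2 fold change was 0.76 ± 0.26 (1.70-fold, adjusted p = 0.0397), and 6 of 8 libraries ended that call when left out, with adjusted p up to 0.107. Against P14, tumour values fell 2.09-fold (-1.06 ± 0.26, adjusted p = 0.0071), and against normal adult they changed by -0.30 ± 0.26 (adjusted p = 0.452). Within groups, r of Angpt1 with the 10 epithelial markers was -0.86, and -0.74 without P14 replicate 4 and tumour replicate 2. The part of epithelial content in its level was not tested. An antisense gene, Gm17473, which has no row in the table, shares 737 exon bases with Angpt1. The strand setting of the counting is not given, so reads of both cannot be told apart.

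The balance of the 2 ligands differed in tumours. The ratio of Angpt2 to Angpt1 counts was 0.55, 0.54, 0.55 and 0.71 in normal adult libraries and 0.48, 0.47, 0.66 and 0.75 in P14 libraries. In tumour libraries it was 2.57, 0.84, 2.17 and 1.25. Every tumour library was above every other library, and 3 of the 4 had more Angpt2 than Angpt1 counts. The mean log2 ratio was 1.42 higher in tumour than in normal adult libraries (2.67-fold) and 1.43 higher than in P14 libraries (2.70-fold). For each, the exact permutation p was 0.0286, again the least possible, and 0.0429 after adjustment over 3 comparisons that share libraries. Between P14 and normal adult the difference was -0.02 (permutation p = 1). These ratios are of counts within a library and are not corrected for gene length.

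**Figure D5:**
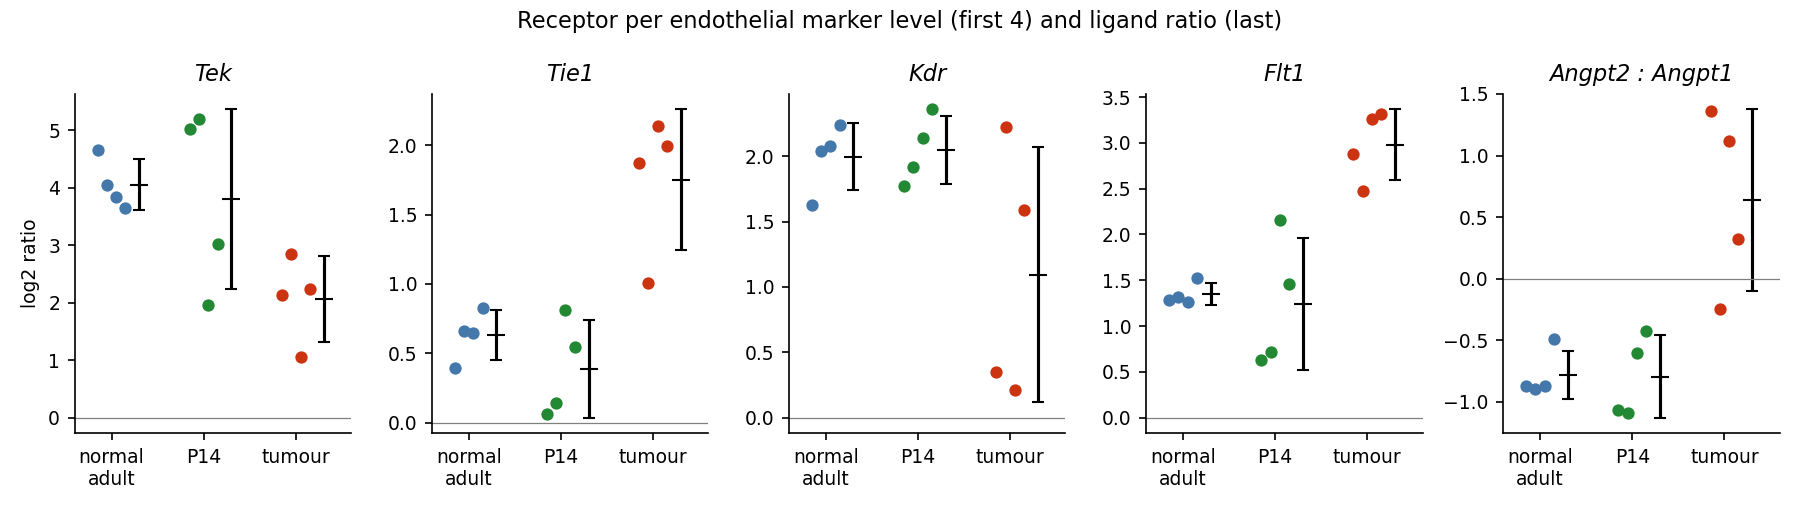
Log2 ratio (y axis) per library by group (x axis) of each receptor to the geometric mean of endothelial markers (panels 1 to 4) and of Angpt2 to Angpt1 counts (panel 5), with the mean and 1 SD over n = 4 in black. Tumour libraries lie above all others for Tie1, Flt1 and the ligand ratio, and below all normal adult libraries for Tek.

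Of the VEGF ligands, Vegfa (ENSMUSG00000023951, chromosome 17, 46016993 to 46032369 on the minus strand), the central angiogenic factor, was called in no comparison. It had 111, 103, 110 and 126 CPM in normal adult libraries, 79.7, 82.4, 144 and 129.9 CPM in P14 libraries, and 94.9, 76.0, 93.2 and 130.2 CPM in tumour libraries. All 3 groups overlapped. The log2 fold change in tumours was -0.19 ± 0.21 against normal adult, with a 95% confidence interval of -0.65 to 0.27, so that a rise of the size seen for Angpt2 lay outside it. At P14 it was -0.05 ± 0.21 (-0.51 to 0.41).

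Vegfa is a classic target of the hypoxia response, along with glycolytic enzymes. Of 16 other genes of that response, 3 rose and none fell in tumours against normal adult, with a median of 0.44 (3 rose and 1 fell without tumour replicate 4). Of all genes, 10.6% rose and 8.29% fell there. Eno1, a glycolytic enolase, had 67.5 ± 13.9 CPM in normal adult and 157.7 ± 44.8 CPM in tumour stroma (change of 1.23 ± 0.22, adjusted p = 0.00219). Egln3, an oxygen-sensing prolyl hydroxylase, changed by 1.45 ± 0.25 (adjusted p = 0.00193), and Pgk1, a glycolytic kinase, by 0.91 ± 0.20 (adjusted p = 0.00913). In tumours against P14, 10 of the 16 rose and 1 fell, where 19.7% of all genes rose and 17.3% fell. At P14 against normal adult, 1 rose and 4 fell, among them Hk2, a hexokinase (-1.39 ± 0.31, adjusted p = 0.00523).

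Vegfc (ENSMUSG00000031520, chromosome 8, 54077606 to 54187096 on the plus strand), the lymphatic growth factor, was highest at P14. Normal adult libraries had 19.5, 10.6, 12.8 and 12.7 CPM. P14 libraries had 27.3, 24.3, 30.8 and 22.0 CPM. Tumour libraries had 17.3, 14.9, 6.37 and 20.3 CPM. Every P14 library was above every other library, with a log2 fold change of 0.91 ± 0.30 against normal adult (1.88-fold, adjusted p = 0.0366). Tumour values fell 1.78-fold from P14 (-0.83 ± 0.30, adjusted p = 0.0464) and changed by 0.08 ± 0.30 from normal adult (adjusted p = 0.884). Each of these calls lay near the threshold: 6 of 8 libraries ended each when left out, with adjusted p up to 0.104 and 0.106. Within groups Vegfc moved with the fibroblast markers (r = 0.80 over 12 libraries, 0.85 without tumour replicates 2 and 3), and the part of fibroblast content in its level was not tested.

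Pgf (ENSMUSG00000004791, chromosome 12, 85166635 to 85177790 on the minus strand) and Vegfb (ENSMUSG00000024962, chromosome 19, 6982473 to 6987651 on the minus strand), the ligands of VEGFR1, were low and not called. Pgf ranged from 4.51 to 9.80 CPM over normal adult, from 8.68 to 11.2 over P14 and from 7.36 to 12.3 over tumour libraries. Its log2 fold changes against normal adult were 0.60 ± 0.26 at P14 and 0.59 ± 0.26 in tumours (adjusted p = 0.0948 and 0.136). Normal adult replicate 1 was the highest of its group in Pgf, and without it they were 0.88 and 0.86 (adjusted p = 0.0196 and 0.0368). Vegfb had 2.36 to 3.92 CPM, 3.82 to 4.56 CPM and 2.78 to 4.50 CPM in the 3 groups, with changes of 0.48 ± 0.24 at P14 and 0.30 ± 0.24 in tumours (adjusted p = 0.141 and 0.414).

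Of 10 further ligands, receptors and processing factors of these pathways, 1 rose and 1 fell in tumours and 2 rose at P14, against normal adult. Of all genes, 10.6% rose and 8.29% fell in tumours, and 14.9% rose at P14. Without P14 replicate 3, none of the 10 rose and 1 fell at P14. Without tumour replicate 4, 1 of the 10 rose and none fell in tumours. Angpt4, a further angiopoietin that binds TIE2, rose in tumours, with 3.99 ± 1.24 CPM in normal adult and 8.62 ± 1.36 CPM in tumour stroma (log2 change 1.11 ± 0.29, adjusted p = 0.0187) and was also higher than at P14 (by 2.38-fold, adjusted p = 0.00542). Flt4, the VEGFC receptor of lymphatic endothelium, fell in tumours from 18.6 ± 10.9 to 1.98 ± 2.05 CPM (-3.18 ± 1.04, adjusted p = 0.0497). Of 6 lymphatic markers, Flt4 among them, 3 fell (2 fell and 1 rose without tumour replicate 4), and their summed CPM ran from 81.2 to 204.9 over normal adult libraries and from 4.22 to 75.2 over tumour libraries. Ccbe1, which helps process VEGFC, rose at P14 together with its ligand, from 4.13 ± 1.01 to 9.92 ± 1.61 CPM (1.26 ± 0.40, adjusted p = 0.0319), and the semaphorin receptor Plxnd1 changed by 0.90 ± 0.30 (adjusted p = 0.0389). The VEGF co-receptors Nrp1 and Nrp2, named here after their values were seen, were lower in tumours than at P14 (log2 changes -0.73 ± 0.20 and -0.88 ± 0.18, adjusted p = 0.012 and 0.00242).

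Of 15 genes of TIE2 and VEGF receptor signalling and feedback in endothelium, 6 rose at P14, and 2 rose and 2 fell in tumours, against normal adult. Of all genes, 14.9% rose at P14, and 10.6% rose and 8.29% fell in tumours. Which cells of these libraries carried the RNA of the 15 was not tested. Esm1, a VEGF-induced tip cell gene, fell in tumours from 7.83 ± 1.92 to 2.18 ± 1.66 CPM (-1.82 ± 0.47, adjusted p = 0.0172), as did the calcineurin inhibitor Rcan1, from 246.7 ± 52.3 to 100.2 ± 33.1 CPM (-1.30 ± 0.21, adjusted p = 0.00147). Egr3 and Nr4a1 rose in tumours by 2.23 ± 0.37 and 0.85 ± 0.24 (adjusted p = 0.00169 and 0.0289), and both are immediate early genes. Without tumour replicate 4, 1 of the 15 rose and 2 fell in tumours, and without P14 replicate 3, 4 rose at P14. Of 15 other secreted regulators of vessel growth, 5 rose and 3 fell at P14, and 1 rose and 2 fell in tumours, against normal adult. At P14, 30.9% of all genes were called either way and 14.9% rose, and in tumours 10.6% rose and 8.29% fell. Angptl4, an angiopoietin-like protein that inhibits lipoprotein lipase and does not bind TIE2, rose from 15.04 ± 3.29 to 69.5 ± 6.42 CPM at P14 and to 31.7 ± 13.6 CPM in tumours (2.21 ± 0.27 and 1.07 ± 0.26, adjusted p = 0.000256 and 0.0133). The semaphorin Sema3a rose at P14 (2.05 ± 0.33, adjusted p = 0.001) and was 4.37-fold lower in tumours than at P14 (adjusted p = 0.00043). Sema3c, also a semaphorin, fell in tumours against normal adult (-1.12 ± 0.19, adjusted p = 0.00193). Vash1, an inhibitor of angiogenesis, fell in tumours (-1.10 ± 0.28, adjusted p = 0.0157).

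The genes most alike in pattern were sought for 9 members with a mean of at least 5 CPM, by Pearson's r of log2(CPM + 0.5) over 12 libraries among 11585 genes. These values include the differences between groups, and all points share library scaling. The nearest to Tek were Hspa12b (r = 0.99), Prokr1 (0.98) and Selenop (0.97). Tie1 and Flt1 were each among the other's 3 nearest (r = 0.97), and both had Adgrf5 first, at 0.97 each. Kdr was nearest to Egfl7, an endothelial secreted protein (0.95), Irf8 (0.94) and Shank3 (0.93). Angpt2 was nearest to Adcy3, Igfbp7 and Trarg1 (0.96 to 0.97), Angpt1 to Galnt11, Asb1 and Rpain (0.97 each), and Vegfc to Habp4 (0.97), Adamts14 (0.96) and Kctd11 (0.94). Vegfa and Pgf had no neighbour above 0.90, the nearest being Hspg2 (0.90) and Prkdc (0.88).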

How the data were processed

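Raw, unnormalized gene counts were deposited by the authors as 1 table for the 12 libraries. Per the labels' protocols, stranded polyA libraries were read as single ends. STAR 2.4.2a, edgeR 3.28.0 and GRCm38 are named in the submitters' processing notes, without roles. Which program counted reads, with which strand setting, was not stated in these sources. Columns were matched to samples by title. GENCODE M21 (GRCm38) gave symbols for 19012 of 19049 gene IDs, positions and exon lengths. Replicates of a group always differed by more than sampling noise (chi-square over df at least 11.4).

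Tests were run in R 4.3.3 with edgeR 4.0.16 (TMM factors, filterByExpr with a minimum count of 10 and minimum total of 15, quasi-likelihood F test over all 12 libraries), which kept 18727 genes and removed 322. CPM and RPKM use library totals times TMM factors, and RPKM divides by the union of exons. Receptor ratios used log2 of CPM plus 0.5 and ligand ratios log2 of counts plus 0.5, with exact permutation tests. The members and lists were chosen with earlier results of these data known. By rule, all 10 members are named, with up to 4 called genes per further list by smallest adjusted p in tumour and then P14 against normal adult, and the 3 nearest genes in pattern, of which not all are printed. Alternatives included other scaling factors, no filter, DESeq2 1.42.0, limma 3.58.1 voom, only 2 groups, a replicate block and leaving out each library. A covariate for high Xist (above 10 CPM) and list counts without 3 libraries were added after seeing the data. The gene test was also run on simulated counts, and the outcome is not given here. Counting error is small for genes with many counts, where the spread between mice limits precision. It is larger at low counts, as for Vegfb, with 62 counts in tumour replicates 3 and 4.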

Additional observations from a re-analysis of the deposited data

Results flagged for a closer look

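Among 45 groups of 4 libraries checked (10 members and 5 ratios in 3 groups), 3 held a library whose gap to the nearest other exceeded 0.829 of the group's range, where chance gives about 1 in 20. Angpt1 in P14 replicate 4 stood at 32.8 CPM, against 53.4 to 55.1 CPM in the other P14 libraries, and without that library the log2 fold change against normal adult was 0.92 (adjusted p = 0.0183 by edgeR). Angpt2 in P14 replicate 3 stood at 35.7 CPM, against 24.5 to 26.3 CPM in the others, and without it the change against normal adult was 0.59 (adjusted p = 0.0405). The log2 ratio of Angpt2 to Angpt1 in normal adult replicate 4 was -0.49, against -0.89 to -0.87 in the other normal adult libraries.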

How the results depend on the processing

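At an adjusted p under 0.01 by edgeR, 3135 genes were called at P14 and 1550 in tumours against normal adult, and 4044 in tumours against P14. Then 0 members were called at P14 (5 had an unadjusted p under 0.05, and at the usual threshold DESeq2 called 3 and voom 4), and 2 in tumours against P14. With the replicate block on the title numbers, those gene counts were 2953, 818 and 3740, and 0, 1 and 2 members were called. Angpt2 in tumours was then at 0.98 (adjusted p = 0.121). The labels do not state that the numbers pair mice. Deviations from the group means correlated above 0.1 in 3 of 6 pairs with the same number (range -0.35 to 0.38). Those 3 were the pairs among libraries numbered 2 (0.25, 0.38 and 0.31). Pairs with different numbers ranged from -0.46 to 0.44. These correlations cannot decide whether the numbers pair mice, and the main test treated the numbers as names. With high Xist as a covariate, 2157 genes were called in tumours against normal adult and 2 members in tumours against P14, where a fit of only those 2 groups also called 2.

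Leaving out single libraries gave 4149 to 5393, 2303 to 4168 (2303 without normal adult replicate 3) and 5363 to 7601 genes in the 3 comparisons, and 1 to 4, 2 to 3 and 2 to 3 members. Tek was called lower in tumours in both comparisons under all 18 alternatives of each, and Angpt2 higher in tumours against normal adult under 17 of 18. No alternative turned a called change round. The cause of these shifts was not tested.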
